A study of Mus musculus with 11 samples.

Results

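The T cell receptor beta locus of the mouse lies on chromosome 6 and was read here as the stretch from position 40500001 to 42000000 of mm9, which is 60 windows of 25 kb out of 105549 in the genome. The stretch was chosen by the position of the locus and by a value already seen in these data, a low number of Hi-C contacts between about 41.0 and 41.5 Mb. That low level is therefore given as a description, with no test. The stretch was read as 3 pieces of 500 kb, called left (40500001 to 41000000), middle (41000001 to 41500000) and right (41500001 to 42000000). The V segments and the trypsinogen genes lie at about 40800001 to 41450000, and the D, J and C segments with Trbc1 and Trbc2 near 41.5 Mb. With no mm9 annotation used here, no single gene was placed on a window.

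The beta chain of the T cell receptor is put together by V(D)J recombination in developing T cells of the thymus. The RAG recombinase first joins a D to a J segment and then a V segment to the joined DJ, and the DNA between the joined segments is in most cases cut out as a circle, which dividing cells do not keep. Where a V segment is joined by such a deletion, the length lost is thus set mainly by which V was used. Trbc1 and Trbc2 encode the constant part of the chain and each follow their own D and J segments. Mature T cells keep their rearranged locus for life, and any cell can carry it on either or both copies of the chromosome.

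In RefSeq's annotation of GRCm38.p6, read for gene order alone, the neighbourhood starts with Mgam, an intestinal maltase-glucoamylase. Trbv1 follows, then 5 protein-coding genes including the protease gene Prss58, and then 33 V segments from Trbv2 to Trbv30. Next come 8 protein-coding genes from Try4 to Prss2, among them the trypsinogens, digestive protease precursors made in the pancreas. After these the order is Trbd1, the first J cluster, Trbc1, Trbd2, the second J cluster, Trbc2 and Trbv31. Trbv31 lies beyond the constant genes and is known to join by inversion, which leaves the intervening DNA in place. Ephb6, an Eph receptor without kinase activity, the calcium channel genes Trpv6 and Trpv5, Kel and Casp2 follow. The annotation lists 35 V segments in all, 13 of them pseudogenes, with 2 D segments, 14 J segments and 2 constant genes.

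The maps are of Th1 cells, CD4+ helper T cells from spleens of male C57BL/6 mice that were activated with anti-CD3, selected with anti-CD4 beads and expanded in IL-2. The labels name no receptor transgene, no age, and no separate animals or cultures, so each SD or p-value covers only the spread among the cells given, which may be technical. In Hi-C, chromatin is fixed and cut, neighbouring ends are ligated, and each ligated pair of fragment ends is a contact. There were 10 single cells, a pooled single-cell map and an ensemble map of a cell population. The ensemble and 9 cells were cut with Bgl II (site AGATCT) and cell 8 with Dpn II (site GATC). The ensemble held 51834382 contacts, the pool 2294791, the Bgl II cells 11156 to 30665, and cell 8 held 12225. The 9 Bgl II cells make up 7.62% of the pool, so pooled values were also read without them. The locus held 42161 contact ends in the ensemble, 2286 in the pool and 10 to 36 in a cell.

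Contact ends per fragment end were low across most of the middle piece, which lies within the stretch given for the V segments and trypsinogen genes apart from its last 50 kb, and were at ordinary levels on both sides. Each window of 25 kb was divided by the median of chromosome 6 windows, so that 1 is the ordinary level, and 51 of the 60 windows were usable, with at least 5 fragment ends. In the ensemble the median window stood at 0.878 in the left piece (19 windows), at 0.513 in the middle (13 windows) and at 0.931 in the right (19 windows). The pool gave 0.910, 0.461 and 1.10 in the same order, and without the 9 cells it gave 0.914, 0.48 and 1.07.

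Windows under 0.5 numbered 6 in the ensemble, all in the middle piece, while 4.98% of all usable chromosome 6 windows lay under 0.5. In the pool there were 12, of which 9 were in the middle, 2 in the left and 1 in the right piece, against 3.98% of chromosome 6 windows. Without the 9 cells there were 11, with 8 in the middle, against 3.83%. In windows of 50 kb the ensemble had 4 such windows, again all in the middle, against 3.04% of the chromosome. The locus was selected on this measure, so these counts are no evidence that it stands apart.

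**Figure D1:**
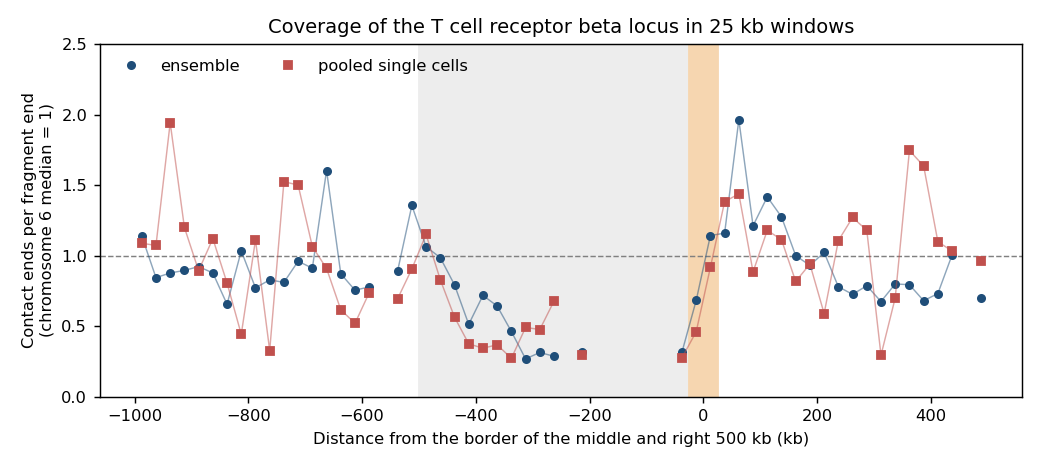
Contact ends per fragment end in windows of 25 kb, relative to the chromosome 6 median (vertical axis, linear), by distance in kb from the border of the middle and right pieces (horizontal axis), in the ensemble and the pool. Grey marks the middle piece up to the D-J-C end, orange the D-J-C end, and gaps in the lines windows that were not usable. The ensemble medians of the left, middle and right pieces were 0.878, 0.513 and 0.931, and both maps run low over most of the middle piece and return to about 1 near the border.

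The low level did not fill the middle piece evenly. From its start the ensemble windows read 1.06, 0.986, 0.793, 0.513, 0.719 and 0.643, then 0.463, 0.269, 0.314 and 0.287. The decline was thus spread over several windows rather than placed at a single one. The 5 lowest usable windows in the ensemble were those starting at 41175001 (0.269), 41225001 (0.287), 41200001 (0.314), 41275001 (0.315) and 41450001 (0.316). In the pool these same windows read 0.492, 0.678, 0.477, 0.295 and 0.277, so 4 of the 5 were under 0.5 there and the window at 41225001 was not.

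The 6 windows from 41300001 to 41450000 held 4, 3, 0, 1, 0 and 3 fragment ends and were not usable. They lie toward the D-J-C end of the V stretch, and RefSeq's order puts the trypsinogen genes, a family of similar copies, between the V segments and Trbd1. How many reads of repeated sequence were lost before the contacts were listed was not tested. The highest windows of the locus were those starting at 41550001 (1.96), 40825001 (1.60) and 41600001 (1.42). Of these, 2 lie in the right piece and 1 in the left piece.

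The 2 windows taken as the D-J-C end, near which Trbc1 and Trbc2 lie, had different levels. The window from 41475001 to 41500000 held 712 contact ends over 16 fragment ends in the ensemble and stood at 0.683, and the pool gave 0.461. The window from 41500001 to 41525000 held 2011 contact ends over 27 fragment ends and stood at 1.14, and the pool gave 0.918. The next 2 windows to the right stood at 1.16 and 1.96 in the ensemble and at 1.38 and 1.44 in the pool. In both maps the level therefore returned to the ordinary range at the D-J-C end.

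At single fragment ends the return was abrupt. The largest rise in the locus lay between the fragment ends at 41483557 and 41496234, which are 12677 bp apart with none between them in the ensemble. The 8 fragment ends before this gap had 5, 24, 13, 57, 30, 21, 2 and 1 contacts, and the 8 after it had 98, 74, 86, 90, 59, 101, 65 and 13. Apart from the last of them, every end after the gap had more contacts than every end before it. The means were 19.1 and 73.3, a ratio of 3.83, and 99.99% of the gaps between fragment ends of chromosome 6 had a smaller step. The gap was picked as the largest rise among 397 in a stretch chosen for low coverage. Its rank is therefore a description and no test. No such step marked the other side, and the largest fall within the locus lay in the left piece, between 40652781 and 40653768, with a log2 step of -1.13.

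**Figure D2:**
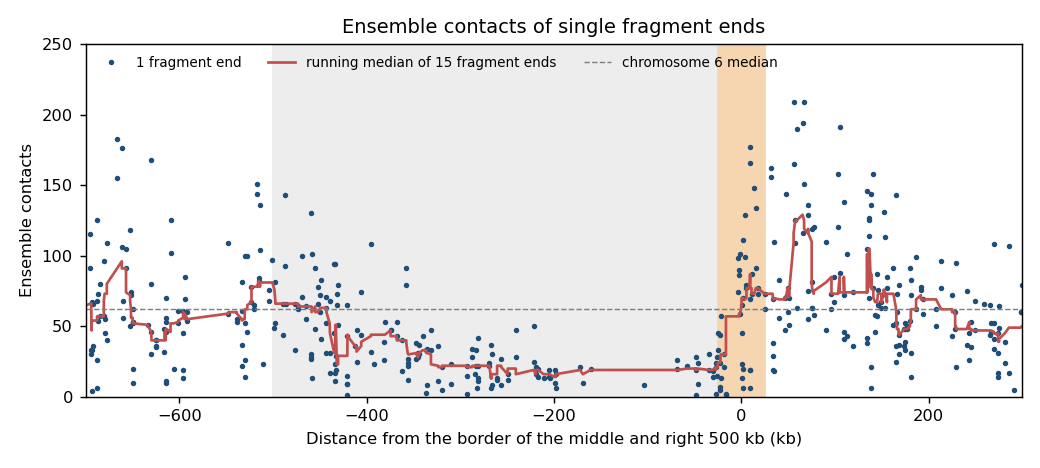
Ensemble contacts at single fragment ends of the locus (vertical axis, linear) by distance in kb from the border of the middle and right pieces (horizontal axis, the outer ends of the locus not shown), with the running median over 15 fragment ends as a line and the chromosome 6 median of 62 dashed. Orange marks the D-J-C end. The ends drift down over the first windows of the middle piece, stay low, and rise from a mean of 19.1 to 73.3 contacts just before the border.

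The median fragment end had 62 contacts over chromosome 6, 56 in the left piece, 28 in the middle and 57.5 in the right. In the first 75 kb of the middle piece the median was 63 contacts, at the level of the chromosome. In the next 400 kb it was 22, in the last 25 kb 37, and in the first 25 kb of the right piece 73. The borders of these sub-pieces were chosen after the windows had been seen. The low piece also held fewer fragment ends, with 177 in the middle against 295 in the left and 266 in the right.

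In the single cells, summed, the first part of the middle piece also stood above the sparse 400 kb. As a ratio to the chromosome 6 mean per fragment end, the first 75 kb of the middle piece stood at 0.811 in the ensemble, 0.758 in the pool and 0.865 in the 9 Bgl II cells (11 contact ends), of which cell 10 gave 5 and without which the value was 0.504. The next 400 kb stood at 0.356, 0.391 and 0.241 (7 contact ends; 95% Poisson interval 0.0968 to 0.496 for the cells). Without cell 3, which gave 3 of the 7, the cells stood at 0.159. The first 25 kb of the right piece stood at 1.02, 0.902 and 0.571 (4 contact ends; 0.155 to 1.46 for the cells), and without cell 3 at 0.329. The intervals cover counting error alone and take contact ends as independent, although a contact within a part gives both of its ends. A level between 0 and 1 in a population map can come from fewer chromosomes carrying the stretch or from fewer contacts on each, and these cannot be told apart here.

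Blocks of 500 kb place the middle piece among others of its size. It stood at 0.566 of the chromosome 6 median in the ensemble, the 20th lowest of 293 blocks, and 14.7% of the blocks were under 0.6. In the pool it stood at 0.498, the lowest of the 293 and the 2nd lowest of 5034 in the genome, while its ensemble rank in the genome was 560. The blocks elsewhere with the most similar pair of values were chromosome 6 132500001 to 133000000 (0.570 in the ensemble, 0.615 in the pool), chromosome 14 95500001 to 96000000 (0.556 and 0.620) and chromosome 3 13000001 to 13500000 (0.590 and 0.618). Likeness was the distance between the 2 values, over 2 maps.

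Another 2 antigen receptor stretches were read the same way. The T cell receptor alpha-delta stretch, chromosome 14 54000001 to 54500000, also rearranges in T cells and stood at 0.0937 in the ensemble and 0.249 in the pool, far lower than the beta locus in both. The 9 Bgl II cells gave the other order, on few contact ends. There the alpha-delta stretch stood at 0.518 (10 contact ends) and the middle piece of the beta locus at 0.416 (19 contact ends). The immunoglobulin kappa stretch, chromosome 6 68000001 to 70000000, rearranges in B cells. Its 4 blocks had a median of 0.586 in the ensemble (0.499 to 0.589), close to the 0.566 of the beta locus, but of 0.975 in the pool (0.850 to 1.08), against 0.498 for the beta locus. The ensemble values of the beta and kappa loci were thus close and their pool values apart, and these differences were not tested.

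The D-J-C end met the stretch of V segments and trypsinogen genes more often than chromosome 6 windows at the same distance met each other. Expected contacts were taken from all usable chromosome 6 pairs at that distance and scaled by the contact ends of both windows. The V windows are all usable windows of that stretch, so contacts of V segments alone were not read. The 18 usable V windows, between 40800001 and 41450000, had 171 ensemble contacts with the 2 windows of the D-J-C end against 29.3 expected, a ratio of 5.84 (95% Poisson interval 4.99 to 6.78). Of the 18 windows, 17 were above 1 and 14 above 2, counts for which no share of other chromosome 6 windows was read. Of the 36 window pairs, 24 were over 2 times expected, against 18.4% of chromosome 6 pairs at these distances.

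Set at every other place on chromosome 6 where it could be read, the same arrangement of windows gave a median ratio of 1.09 and a 95th percentile of 1.84 over 5099 places. The highest of them was 5.62, so 0 of them reached the value of the beta locus, and 2.69% were over 2. Places overlap and are not independent, and those a few windows away share windows with the locus. The scaling uses the contact ends by which the locus was chosen, and the ratio from distance alone was not ranked. This is therefore a description of rank and not a test. The pool had 16 contacts against 2.35 expected, a ratio of 6.81 (3.90 to 11.1), and 1 of the 5099 places was as high. At this window size 9 of its 18 V windows were above 1 and 12 of its 36 pairs over 2 times expected. No chromosome 6 share was read for these 2 pool counts. Without the 9 cells it had 15 against 2.31, a ratio of 6.51. The 9 cells together had 1 such contact, against 0.0712 expected.

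Windows of 50 kb gave 226 ensemble contacts against 47.1, a ratio of 4.80 (4.19 to 5.47). Of 22 pairs, 16 were over 2 times expected, against 14.6% of pairs on the chromosome, and 1.74% of places were over 2. The pool gave 27 contacts against 4.45, a ratio of 6.06 (95% Poisson interval up to 8.82), with 12 of 22 pairs over 2 times expected against 18.9%, and 1.27% of places over 2. Scaling by contact ends lowers the expected number for the sparse middle piece. With distance as the only basis of the expected number the ratio was smaller but still above 1, at 3.26 in the ensemble and 3.50 in the pool.

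**Figure D3:**
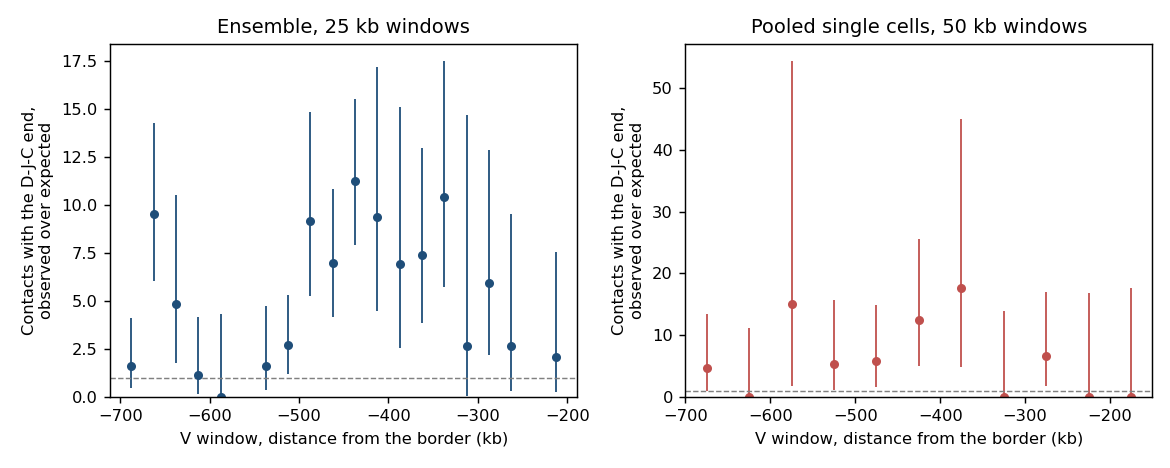
Observed over expected contacts of each V window with the D-J-C end (vertical axes, linear, with different ranges), by distance in kb from the border of the middle and right pieces, for windows of 25 kb in the ensemble (left panel) and 50 kb in the pool (right panel), with 95% Poisson intervals. The dashed line at 1 is the expected level, and 17 of the 18 ensemble windows and 7 of the 11 pool windows lie above it. No chromosome 6 share was read for these counts. The expected number of a pool window was at most 0.687 contacts, so any contact put it above 1.

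V windows differed among themselves. The highest ratios were at 41050001 (37 contacts, ratio 11.3), 41150001 (14 contacts, ratio 10.4) and 40825001 (23 contacts, ratio 9.52). The first of these lies in the first 75 kb of the middle piece, the second inside the sparse part, and the last in the left piece. Coverage of the first stood at 0.793 of the chromosome 6 median in the ensemble and 0.564 in the pool. The lowest were at 40900001 (0 contacts against 0.854 expected), 40875001 (2 contacts, ratio 1.16) and 40800001 (4 contacts, ratio 1.61). The interval of the window at 40900001 reaches 4.32, which is below the lower bounds at 41050001 (7.93), 40825001 (6.03) and 41150001 (5.71) and above the ratios of the other low windows. V windows of the left piece alone gave a ratio of 3.40 in the ensemble and those of the middle piece 7.93, a split made after the values were seen. In the pool the values were 6.43 and 7.07. From distance alone the ensemble gave 3.16 for the left and 3.30 for the middle V windows, so the gap between them depended on the scaling.

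Contacts of the D-J-C end were above the expected number on the side of the V windows. In the ensemble those with the middle piece were 6.54 times the expected number (5.46 to 7.78) and those with the left piece 2.58 times (2.04 to 3.23). From distance alone the ratios were 2.47 and 2.45, so both stayed above 1 while the size for the middle piece depended on the scaling. With the 500 kb beyond, from 1000 to 1500 kb on the left, the ratio was 1.41 (0.969 to 1.98). To the right, away from the V windows, the first 500 kb gave 1.07 (0.874 to 1.29) and the next 500 kb 1.71 (1.28 to 2.23). The one after gave 0.563 (0.243 to 1.11). The interval of the second of these lies above 1, so contacts were above the expected number there too, and the other intervals include 1. The pool gave 5.43 and 3.44 for the first and second 500 kb on the left, and 0.983 for the first on the right. From distance alone these were 1.88, 3.59 and 1.26.

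The flanks of the low piece also met each other often. The left and right pieces shared 376 ensemble contacts against 156.8 expected, a ratio of 2.40 (2.16 to 2.65), higher than 98.3% of chromosome 6 block pairs at that spacing, and 11.7% of those pairs were over 2. In the pool there were 58 contacts against 18.6, a ratio of 3.11 (2.36 to 4.02), higher than 97.9% of pairs, and 7.9% were over 2. From distance alone, the ensemble ratio was 1.68. Contacts within the left piece and within the right piece were near or below the expected number in the ensemble, at 0.982 and 0.970 from windows of 50 kb.

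Contacts that involve the middle piece depended on how the expected number was set. Within the middle piece the ensemble ratio was 4.11 when scaled by contact ends and 0.486 from distance alone, and the pool gave 3.84 and 0.498. Between the middle and right pieces it was 2.68 and 0.835 in the ensemble, and 1.96 and 0.773 in the pool. Between the left and middle pieces it was 1.27 and 0.400 in the ensemble, and 1.49 and 0.595 in the pool. Left to right contacts were above the expected number both ways, at 2.31 and 1.62 in the ensemble and 3.17 and 3.26 in the pool. No direction is drawn for the middle piece as a whole with itself or with either neighbour.

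**Figure D4:**
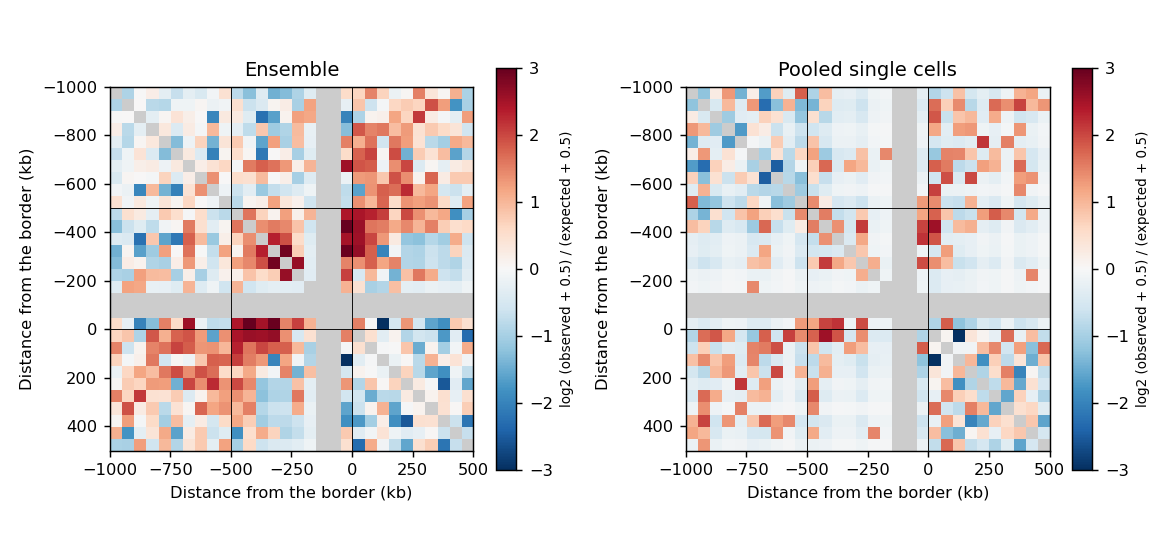
Contacts between windows of 50 kb across the locus as log2 of observed over expected, scaled by contact ends with a pseudocount of 0.5, in the ensemble and the pool. Both axes are distance in kb from the border of the middle and right pieces, and grey marks the diagonal and windows that were not usable. The block where left meets right stands above 0 in both maps (ratios 2.31 and 3.17), and the colour of the middle piece turns with the scaling described in the text.

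The same flank contact was high around the alpha-delta stretch in the ensemble, with 8 contacts against 0.935 expected, a ratio of 8.55. The pool had 1 against 0.231. Around the kappa stretch the flanks had 5 contacts against 4.60 expected in the ensemble, a ratio of 1.09, and 2 against 1.34 in the pool. The counts at both other loci are small, the kappa stretch is 2000 kb long where the others are 500, and the differences from the beta locus were not tested.

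Single cells held too few contacts for a map, and each is given by its counts. From cell 1 to cell 10 the middle piece had 0, 1, 6, 0, 0, 2, 2, 1, 1 and 7 contact ends. Relative to the chromosome 6 median of the same cell, the 9 Bgl II cells averaged 0.557 ± 0.813 (SD, n = 9) in the middle piece, 1.24 ± 0.534 in the left and 1.01 ± 0.398 in the right. In the middle piece 6 of the 9 were under 0.5, against 1 of 9 in each flank. Cell 10 stood at 2.54 and cell 3 at 0.998, so the middle piece was not sparse in every cell. Without cell 10 the mean of the middle piece was 0.309 ± 0.353 (SD, n = 8), so its value depends on that cell. The same measure was used to choose the locus, and the 9 cells are part of the pool, so the low level was not tested.

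In cell 10, 5 of the 7 middle ends lay in the first 75 kb, and in cell 3, 3 of 6 did. A contact end in the next 400 kb was found in cells 3, 6, 7 and 10, with 7 ends in all. Cells 1, 4 and 5 had no middle end among 27, 13 and 19 ends in the locus, which allows shares of up to 11.1%, 23.1% and 15.8%. In these cells, 2, 2 and 4 of the 293 chromosome 6 blocks had no contact end. In the ensemble the middle piece had 15.5% of the ends of the locus, and of the 3 limits that of cell 1 alone lies below this share.

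**Figure D5:**
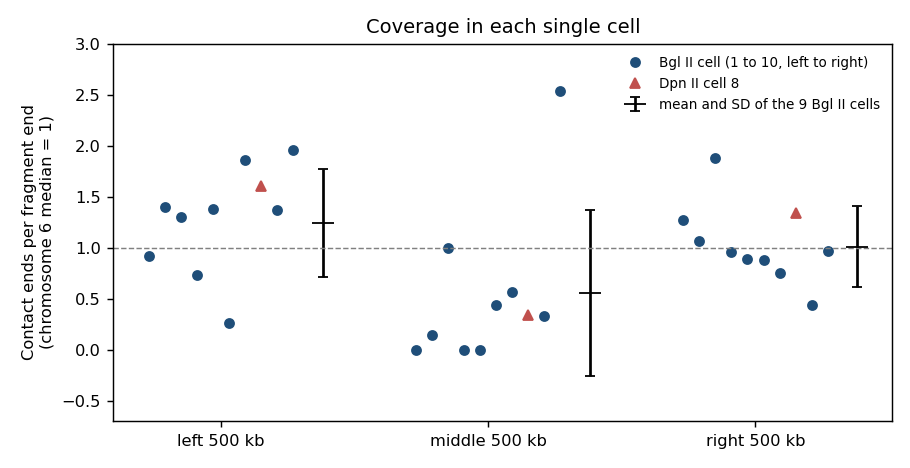
Contact ends per fragment end of the left, middle and right pieces, relative to the chromosome 6 median of 500 kb blocks (vertical axis, linear), in each single cell (points; cell 8, cut with Dpn II, has its own symbol), with the mean and SD of the 9 Bgl II cells. The Dpn II ends of cell 8 were divided by the Bgl II fragment ends of the ensemble, so its levels are not per own fragment end. The lower end of the SD bar of the middle piece lies below 0, where no value can lie. In the middle piece 6 of the 9 cells lie under 0.5 and cell 10 stands at 2.54.

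Contacts from the left to the right piece were seen as 1 contact each in cells 3, 5, 7, 9 and 10 and as 0 in cells 1, 2, 4, 6 and 8. That of cell 3 joined 40838713 to 41513693, 675 kb apart, from a V window of the left piece to the right-hand window of the D-J-C end. Those of cells 5, 7, 9 and 10 joined ends 975, 1007, 1053 and 700 kb apart. Summed over the 9 Bgl II cells, the 5 contacts stood against 1.32 expected, a ratio of 3.79 (1.23 to 8.83). Per cell, observed minus expected was 0.409 contacts ± 0.541 (SD, n = 9), above 0 in 5 of 9 cells. An exact two-sided sign-flip permutation test over the cells gave p = 0.0625, and 0.1875 after Benjamini-Hochberg adjustment over 3 tests, so the excess did not pass the threshold of 0.05. Although 9 cells in general allow a p of 0.00391, 0.0625 was the smallest possible with 1 contact in each of 5 cells and none in the others. The test therefore cannot decide whether there was an excess.

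The partners of the locus on other chromosomes were counted as the trans share of its contact ends. It was 52.3% in the ensemble against 49.4% over chromosome 6, and 20.3% in the pool against 18.3%. In the ensemble the middle piece had a lower trans share (46.1%, Wilson interval 44.9 to 47.3) than the left (54.3%) and the right (52.6%). In the pool the order was the other way, with 25% in the middle (20.5 to 30.2), 20.3% in the left and 18.7% in the right (16.4 to 21.3), and the interval of the middle overlaps those of both flanks. The D-J-C end had a trans share of 46.3% in the ensemble and 21.1% in the pool.

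Over the 9 Bgl II cells the trans share of the locus minus that of other chromosome 6 ends was 5.37 percentage points ± 10.7 (SD, n = 9), above 0 in 6 of 9 cells. The exact sign-flip permutation test gave p = 0.180, adjusted 0.270. Cell 2 had the highest share at 39.3%, and cells 1 and 9 had none, which allows up to 11.1% of 27 ends in cell 1 and 30% of 10 ends in cell 9.

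Contacts over 5 Mb made up 57.2% of the cis ends of the locus in the ensemble against 55.7% for chromosome 6. In the pool they made up 35.4% against 41.3%. Of the 3 pieces the middle had the lowest share in both maps, with 52.4% in the ensemble and 29.4% in the pool (23.9 to 35.6). The sparse 400 kb alone stood at 52.3% and 36.6%, and the D-J-C end at 50.3% and 27.9%. Over the cells the difference from other chromosome 6 cis ends was -2.87 points ± 17.8 (SD, n = 9), above 0 in 4 of 9, with an exact permutation p of 0.625, adjusted 0.625. Neither composition differed from the rest of the chromosome by more than the spread between these cells.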

How the data were processed

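The deposited files list contacts, 1 line each with the chromosome and position in bp of its ends, per the file headers, and no read number. Positions are on mm9, as named in the submitters' processing notes. Which aligner and read filters were used is not given in the sources. Fragment ends were the distinct positions in the ensemble, and ends of other maps were matched to windows by position. Coverage was contact ends per fragment end over the chromosome 6 median (windows with at least 5 fragment ends, blocks with at least 20). Expected contacts were the chromosome 6 sum at a distance, shared out by the product of both windows' contact ends. Intervals are 95% Poisson or Wilson, and a count of 0 allows 3. Tests over the 9 Bgl II cells were exact sign-flip permutations. The coverage measure, the contact ratio and the sign-flip test were tried on simulated data. There, no simulated V or D-J-C window lay inside the sparse stretch, so ratios within it were not checked. Named windows were the 5 lowest and 3 highest in coverage, the D-J-C windows, the 3 highest and 3 lowest V windows by ratio, and the 3 blocks most alike. The members, windows and lists were chosen with earlier results of these data known. RefSeq (GRCm38.p6) gave gene names and order only, and no sequence was read. Software was matplotlib 3.10.9, pandas 2.3.3, scipy 1.17.1 and numpy 2.4.6 under Python 3.11.15. Alternatives covered window size, minimum fragment ends, reference, contact class, expected number and each cell left out.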

Additional observations from a re-analysis of the deposited data

Results flagged for a closer look

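Cell 10 stood apart from the other Bgl II cells in the middle piece of the beta locus, at 2.54 times its chromosome 6 median where the next highest cell, cell 3, stood at 0.998. It rests on 7 contact ends, and contacts of 2.27 and 37.1 kb within the piece gave both of their ends to this count. Its gap to the next cell was above Dixon's 95% critical value for 9 samples, in 1 of 10 measures screened over the cells, and chance alone passes it in about 1 in 20. The screen ran on counts of 0 to 7 with ties at 0, and on the measure by which the locus was chosen, so it only marks the cell and supports nothing about the locus.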

How the results depend on the processing

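Of 109 alternatives tried, 85 were counted as leaving a value the same and 24 as moving it. Values counted as the same could still differ in size. The long cis difference over the Bgl II cells went from -2.87 to -0.0233 points without cell 3. Windows under 0.5 in the pool went from 12 to 17 per kb. None of the alternatives turned a test, or the direction of a ratio whose interval leaves out 1. For left to right contacts none could have turned the test. With 1 contact in each of at most 5 cells, the exact permutation p cannot fall below 0.0625. Not counted among them, ratios within the middle piece (4.11) and between it and its neighbours (2.68 and 1.27) turned to 0.486, 0.835 and 0.400 from distance alone in the ensemble. The ensemble median of the middle piece (0.513) became 0.461 in windows of 50 kb, 0.410 per kb, 0.475 against all autosomes, 0.485 and 0.379 with at least 10 or 1 fragment ends, 0.627 for cis contacts, 0.487 without the top fragment end of each window, and 0.316 over its sparse 400 kb, an alternative added after the data were seen. The pool median (0.461) became 0.392 in windows of 50 kb, 0.319 per kb, 0.384 for cis contacts and 0.369 over the 400 kb. Windows under 0.5 numbered 14 per kb and 12 with at least 1 fragment end in the ensemble (6), and 7 with at least 10 in the pool (12). The ratio of V to D-J-C contacts was 4.80 in windows of 50 kb, 3.26 from distance alone, 3.40 for left and 7.93 for middle V windows in the ensemble, the last 2 added after the data were seen, and 3.50 from distance alone in the pool. From distance alone, added after the data were seen, the ratio of the D-J-C end with the middle piece was 2.47 in the ensemble (6.54) and 1.88 in the pool (5.43). The left to right ratio was 1.68 from distance alone and 3.01 over the nearest 250 kb in the ensemble. The nearest 250 kb gave 3.28 in the pool (3.11). Over the Bgl II cells the same setting lowered observed minus expected from 0.409 to 0.193 contacts. The adjusted p by the exact permutation test went from 0.1875 to 0.625. Leaving out each cell gave 0.309 to 0.627 for the mean coverage of the middle piece over cells, the lowest without cell 10, 0.341 to 0.491 for left to right contacts (adjusted p by the exact permutation test 0.1875 to 0.270), 3.85 to 7.53 points for the trans share and -6.29 to -0.0233 for long cis contacts. No paired analysis was possible because the ensemble and the Bgl II cells share fewer than 2 replicate numbers, and the tests over cells already compare values within each cell. Single cells held 10 to 36 ends in the locus, which limits every value per cell.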
